A study of Homo sapiens with 30 samples.

Results

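The mesenchymal state genes followed here are 10 listed symbols, VIM, CD44, CHI3L1, FN1, CDH2, SNAI1, SNAI2, TWIST1, ZEB1 and ZEB2, of the 61471 rows in each of 2 expression tables, and each symbol was found and tested in both. They were read in U87 (U87-MG) and U251 (U251-MG), established human glioblastoma lines that the study treats as mesenchymal-like and proneural-like, by bulk RNA sequencing of cultures kept with interferon-γ (IFN-γ), the cytokine of activated T and NK cells. The libraries formed 5 groups in each line. Untreated cells received no IFN-γ and are labelled as collected on day 3. D3, D14 and D28 received IFN-γ for 3, 14 and 28 days, and D28WO received it for 14 days and was then kept without it until day 28. By the labels no untreated library was collected on day 14 or 28. Differences of D14, D28 and D28WO from Untreated therefore mix IFN-γ with time in culture, and these cannot be told apart. The labels give the dose as 1 µg/mL, and the study's methods state another dose, and another day for the untreated cells. Of 30 labelled libraries 28 were used, since the 2 U87 columns of the same name could not be told apart, which left n = 2 in U87 at D3 and D14 and n = 3 in every other group. According to the methods the replicates were separate culture preparations, and the lines were not authenticated again. The methods also state that cultures were divided at D14 between continued IFN-γ and washout. Which D28 and D28WO libraries came from the same culture is not given, so the comparisons between groups treat them as unpaired.

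Cells in a mesenchymal state carry a vimentin filament network, adhesion molecules such as CD44 and N-cadherin, and a fibronectin matrix. In epithelial cells the change to this state is driven by the SNAI, TWIST and ZEB transcription factors, of which the SNAI and ZEB proteins bind E-box sequences and repress E-cadherin. Glioma cells hold little E-cadherin to begin with, and in glioblastoma the mesenchymal state is known for high CD44 and CHI3L1, for inflammatory genes and for its contrast with a proneural state marked by glial lineage genes. IFN-γ signalling reaches its target genes through GAS elements and through IRF1, which binds ISRE-type elements.

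The 250 bases before the transcription start are shown for CHI3L1 and ZEB2, since these were the 2 members that rose in U87 both at D3 and at D28. Both stretches come from RefSeq on GRCh38.p14 and are written 5′ to 3′ on the gene's own strand, the minus strand, and capitals mark the motif match described below. The CHI3L1 stretch lies at chr1:203186705-203186954, just before the gene, and the ZEB2 stretch at chr2:144520120-144520369, within the longer ZEB2 gene of GENCODE and within its antisense gene ZEB2-AS1.
CHI3L1: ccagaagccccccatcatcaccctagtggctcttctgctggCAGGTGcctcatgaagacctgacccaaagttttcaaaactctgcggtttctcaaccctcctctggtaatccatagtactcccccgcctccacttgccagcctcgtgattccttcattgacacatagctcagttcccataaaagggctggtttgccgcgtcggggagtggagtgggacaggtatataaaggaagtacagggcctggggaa
ZEB2: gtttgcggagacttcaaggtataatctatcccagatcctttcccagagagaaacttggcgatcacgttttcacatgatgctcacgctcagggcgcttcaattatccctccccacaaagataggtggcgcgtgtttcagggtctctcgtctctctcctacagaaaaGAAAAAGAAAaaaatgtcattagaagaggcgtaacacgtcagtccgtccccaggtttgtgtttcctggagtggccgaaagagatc

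Windows of this length were searched on both strands for a GAS motif (TTCNNNGAA), an ISRE-type motif (GAAA, any 2 bases, GAAA) and the E-box CACCTG, which do not overlap each other in the stretches shown. CHI3L1 held 1 E-box, read on the opposite strand at bases -209 to -204, and ZEB2 held 1 ISRE-type match at bases -85 to -76. Over all 35116 windows of the RefSeq table, 6.57% held the GAS motif, 3.02% the ISRE-type motif and 17.5% the E-box. A window was found for 7 members. None of the 3 motifs matched in the windows of VIM, CD44 and FN1 or in the 2 windows of CDH2, and the 7 windows of ZEB1 held 3 E-box matches and 1 ISRE-type match. No window was used for SNAI1, SNAI2 and TWIST1. A match is a stretch of letters and was not tested for binding.

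Before the members, IRF1 and GBP1, 2 IFN-γ response genes, were read in every library as a check of the labels. In U87, IRF1 averaged 133 ± 2.78 TPM in Untreated, 448 ± 3.34 TPM at D3, 122 ± 17.1 TPM in the libraries labelled D14, 479.7 ± 51.7 TPM at D28 and 509.6 ± 46.5 TPM in those labelled D28WO (SD, n = 2 or 3 as above). GBP1 split the groups the same way, with the U87 libraries labelled D14 at the untreated level and those labelled D28WO, cells 14 days without IFN-γ, at the treated level. Against Untreated the log2 fold changes of IRF1 and GBP1 in the U87 libraries labelled D14 were -0.13 and -0.068 (adjusted p = 0.488 and 0.748 by limma). In U251, GBP1 averaged 46.4 ± 3.04 TPM in Untreated, 445 ± 38.2 TPM at D3, 151 ± 8.69 TPM at D14, 477 ± 22.8 TPM at D28 and 464 ± 6.001 TPM in D28WO, and both genes rose in all 4 groups. In U251 both genes stood in D28WO, also 14 days without IFN-γ, at the D28 level and above D14. Why these libraries stand as they do was not tested. Neither was whether the libraries labelled D14 and D28WO carry the right labels in either line. If they do not, the values given under these labels, written D14 and D28WO for U251, stand for other conditions. The numbers of members called at D3 and D28, and the member calls lost there without these libraries, are given with each result.

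**Figure D1:**
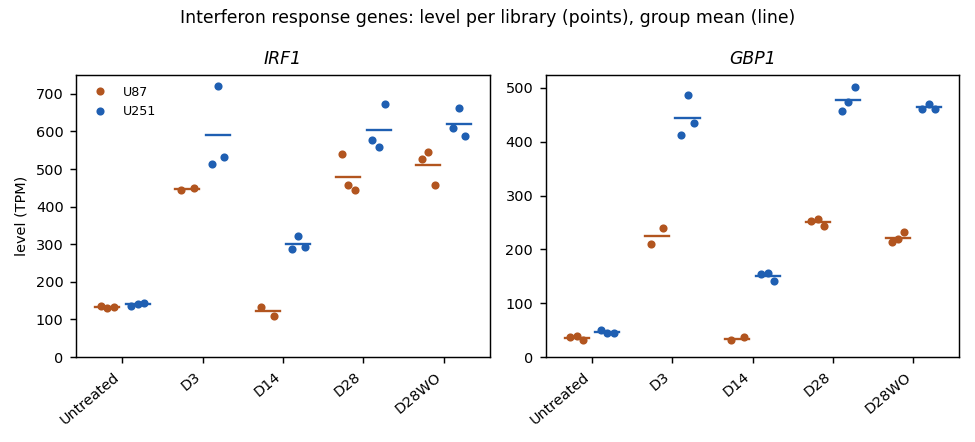
Levels (TPM, y axis from 0) of IRF1 and GBP1 in the 5 groups (x axis) of U87 (brown) and U251 (blue); each point is 1 library and each line the group mean. The U87 libraries labelled D14 lie at the untreated level, and D28WO lies at the level of D28 in both lines.

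The tables hold TPM, which is scaled per transcript length and library and keeps no sequencing depth. The methods state a minimum number of reads per sample, the depth of each library is unknown, and no interval from read counts is given. Per library 24223 to 30246 genes were above 0, with the fewest in Untreated of U87, and the lowest correlation of a library with its own group was 0.947. The background over 405 olfactory receptor genes, a trimmed mean, was at most 0.049 TPM in any library, well under the level of each member. It differed by group, at 0.0036 to 0.0071 TPM in Untreated and 0.0094 to 0.026 TPM at D28 of U87. In U251 it was 0.0049 to 0.012 TPM in Untreated and 0.018 to 0.040 TPM at D28. GFAP, the astrocyte filament, averaged 1258 ± 46.3 TPM in Untreated U251 and 4.84 ± 2.32 TPM in Untreated U87. Of 4 endothelial markers none was called at D28 of U87 and 1 of 3 tested fell at D28 of U251, CDH5, whose list summed to 26.8 to 38.4 TPM in Untreated and 4.16 to 5.39 TPM at D28. The summed level of 5 fibroblast and pericyte markers was 356 to 405 TPM in Untreated, 350.2 to 374 TPM at D28 and 223 to 277 TPM in the libraries labelled D28WO of U87, and 22.3 to 31.7 TPM in Untreated and 36.7 to 44.8 TPM at D28 of U251. Within the U87 sum DCN rose at D28 from 7.19 ± 2.29 TPM to 53.3 ± 9.59 TPM, 2.75 (SE 0.23, adjusted p = 6.91e-06), and COL1A1 fell from 281 ± 21.5 TPM to 218 ± 19.6 TPM, -0.36 (SE 0.11, adjusted p = 0.0291), a call lost without Untreated replicate 3 or D28 replicate 1 or 2 (adjusted p up to 0.327 over the alternatives). The part of these cells' markers in the members' results was not tested.

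Differences were tested with limma on log2(TPM + 1) within each line, with Benjamini-Hochberg adjustment over all genes, and a gene was called at an adjusted p under 0.05. All fold changes below are on this scale, which understates changes of low genes, and the lines were not tested against each other because their tables were normalized separately. In U87, 3 of the 10 members were called at D3, where 16.7% of 22918 tested genes were, 1 in the libraries labelled D14 (5.16%), 3 at D28 (23.8%) and 5 in those labelled D28WO (42%). In U251, 6 of 10 were called at D3 (40.9% of 23667 genes), 3 at D14 (21.2%), 7 at D28 (40.6%) and 6 in D28WO (27.7%). Without all libraries labelled D14, or without all labelled D28WO, 2 members were called at D3 and 2 at D28 of U87, and 5 and 6 in U251. Among genes averaging 100 TPM or more in the line, where several members lie, the shares called were 27.8%, 6.08%, 37.4% and 61.5% in U87 and 56.1%, 30.8%, 54% and 44.6% in U251. The members' counts were above the share of all genes in each comparison, by less than 2 members except at D28 and D28WO of U251, and at D28 and D28WO of U87 and D14 of U251 they were below that of genes averaging 100 TPM or more, so no count is read as particular to the members. The 10 genes did not move in 1 direction in either line. The 4 comparisons of a line share the same Untreated libraries.

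In U87 the members that rose against Untreated were CHI3L1 in all 4 comparisons and ZEB2 in 3 of them, and those that fell were VIM at D3, CDH2 at D28, and VIM, CD44 and SNAI2 in the libraries labelled D28WO. In U251, SNAI2 rose and CD44 fell in all 4 comparisons, FN1 and ZEB1 rose and VIM fell in 3, TWIST1 fell at D3 and D28, SNAI1 rose at D14, and CHI3L1 rose at D28 and fell in D28WO. ZEB2 and CDH2 were called in no comparison of U251, and FN1 and ZEB1 in none of U87. Few changes were large. With a log2 fold change over 1 as a further limit, 1 member passed at D3 of U251 (14.3% of all genes), 1 at D14 (5.76%) and 2 at D28 (15.2%), and the largest change of a U87 member against Untreated, CHI3L1 at D28, lay just under the limit.

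The median log2 fold change of all tested genes against Untreated was itself above 0, at 0.20, 0.15, 0.19 and 0.25 at D3, D14, D28 and D28WO of U87 and 0.13, 0.096, 0.16 and 0.015 in U251, while the median of genes of at least 100 TPM was below 0, at -0.14, -0.086, -0.14 and -0.21 in U87 and -0.045, -0.020, -0.076 and -0.023 in U251. Taken relative to either median, none of the 22 called member changes of U87 and none of the 41 of U251, over 8 comparisons each, turned its sign. Relative to the median of all genes, CHI3L1 at D28 stood at 0.81 in U87 and 1.27 in U251, SNAI2 at D28 of U251 at 0.87 and CD44 at -1.06. ZEB1 at D28 of U251 was left at 0.053.

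**Figure D2:**
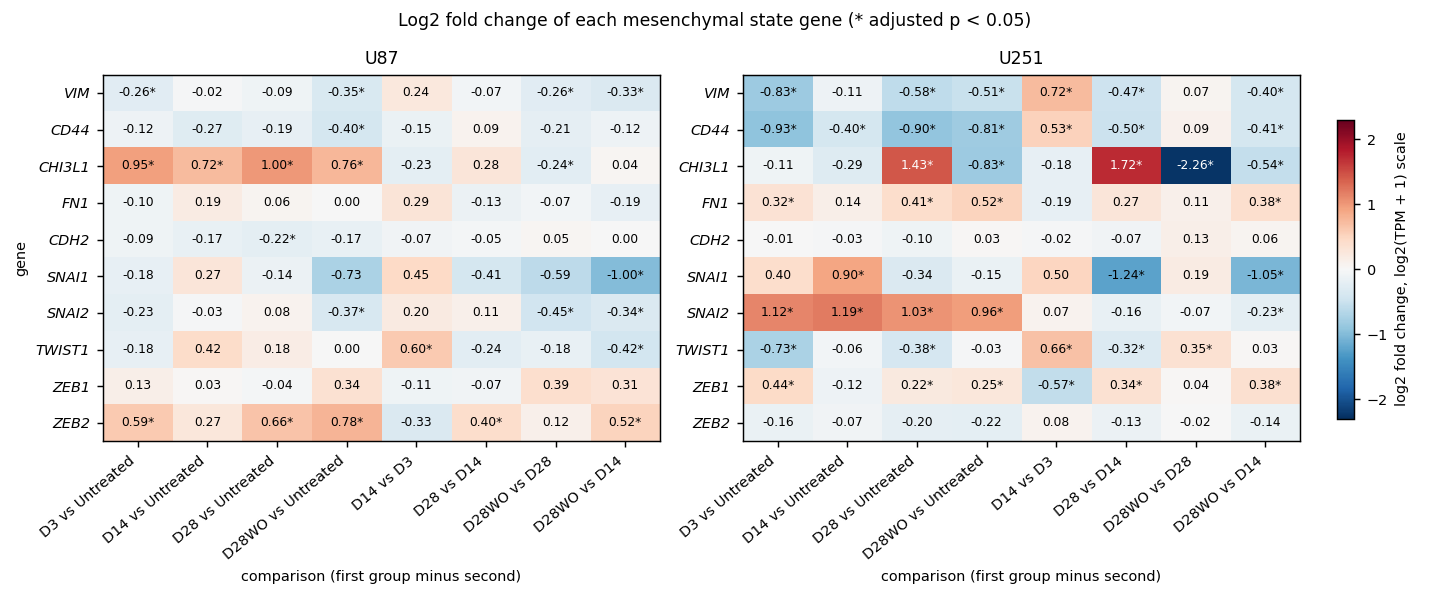
Log2 fold change on the log2(TPM + 1) scale (colour and printed value, first group minus second) of the 10 genes (rows) in 8 comparisons (columns) of U87 (left) and U251 (right); a star marks an adjusted p under 0.05. CHI3L1 and ZEB2 stand out as higher in U87, SNAI2 as higher and CD44 and VIM as lower in U251. The largest values of U251 are those of CHI3L1, 1.43 in D28 against Untreated, 1.72 in D28 against D14 and -2.26 in D28WO against D28. VIM in D28WO against D28 of U87, at -0.26 here, turned to 0.029 under quantile normalization.

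Between groups that had both received IFN-γ, the members called in U87 were 1 in D14 against D3 (4.79% of all genes), 1 in D28 against D14 (4.06%), 3 in D28WO against D28 (18.3%) and 5 in D28WO against D14 (25.9%). In U251 they were 4 (25.5%), 6 (20.8%), 2 (29.1%) and 7 (26.4%). From D3 to D14 of U251, CD44 and TWIST1 rose, by 0.53 and 0.66, and from D14 to D28 CD44 fell by 0.50 on the log2 scale, with adjusted p = 4.80e-04, 3.44e-04 and 8.85e-04. The TWIST1 difference between D28 and D14, -0.32, was lost without D14 replicate 1 or 3 or D28 replicate 1, 2 or 3 (adjusted p 0.0691 to 0.157). In D28WO against D14 of U251, ZEB1 and FN1 rose, by 0.38 and 0.38. SNAI1, CHI3L1, CD44, VIM and SNAI2 fell there, with -1.05, -0.54, -0.41, -0.40 and -0.23. ZEB1, SNAI1, CD44 and VIM kept their calls without any 1 library. FN1 lost its call without D14 replicate 1 or 3 or D28WO replicate 2 or 3 (adjusted p 0.0566 to 0.116), SNAI2 without D14 replicate 2 or 3 or D28WO replicate 1, 2 or 3 (adjusted p 0.0518 to 0.189) and CHI3L1 without D14 replicate 1 or D28WO replicate 1 (adjusted p 0.0589 to 0.0611). In U87, VIM was lower in the libraries labelled D28WO than at D28, -0.26, which was lost without D28 replicate 1 or 2 or D28WO replicate 1 or 3 (adjusted p 0.0526 to 0.0921). Against the libraries labelled D14, those labelled D28WO were higher in ZEB2 and lower in VIM, SNAI1, SNAI2 and TWIST1. Of these, VIM lost its call without D14 replicate 3 (adjusted p = 0.0811), SNAI1 without D14 replicate 2 or 3 or D28WO replicate 1 or 2 (adjusted p 0.0984 to 0.247) and TWIST1 without D14 replicate 2 or D28WO replicate 1 or 3 (adjusted p 0.0535 to 0.227).

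VIM (chr10:17228241-17237593, plus strand, GRCh38) encodes vimentin, the main intermediate filament of mesenchymal cells, and was among the most abundant transcripts, at rank 4 of all genes in Untreated U87 and rank 9 in Untreated U251. In U87, VIM stood at 1459, 1214 and 1249 TPM in Untreated, 1129.7 and 1047 at D3, 1254 and 1309 in the libraries labelled D14, 1229.8, 1260.4 and 1182 at D28 and 984, 1057 and 1024 in those labelled D28WO. The Untreated and D28 libraries overlapped, while every D3 and D28WO library lay below every Untreated one. VIM fell by 0.26 on the log2 scale at D3 (SE 0.078, adjusted p = 0.0404) and by 0.35 in the libraries labelled D28WO (SE 0.069, adjusted p = 0.00174), and the D28 difference was -0.091 (SE 0.069, adjusted p = 0.378). With quantile normalization the D28WO difference was -0.098 (adjusted p = 0.119) and no longer called. The D3 call was lost on leaving out Untreated replicate 1 or 3 or D3 replicate 2 or 3 (adjusted p between 0.051 and 0.222), and on leaving out all libraries labelled D14 (0.0559) or D28WO (0.0758).

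In U251, VIM read 1143, 1161 and 1119 TPM in Untreated, 599, 687 and 638 at D3, 1128, 1091 and 963 at D14, 697, 760.2 and 836 at D28 and 817, 807 and 774 in D28WO. The 3 D3 libraries were the lowest, D14 overlapped with Untreated, and D28 and D28WO lay between and overlapped each other. Mean VIM at D3 was 0.56 of that in Untreated, a log2 fold change of -0.83 (SE 0.072, adjusted p = 6.89e-07). It fell also at D28, to 764 ± 69.5 TPM (SD, n = 3) from 1141 ± 21.0 TPM (SD, n = 3), a log2 fold change of -0.58 (SE 0.072, adjusted p = 2.05e-05), and in D28WO, -0.51 (SE 0.072, adjusted p = 1.05e-04), while D14 gave -0.11 (SE 0.072, adjusted p = 0.319). With quantile normalization the D28 difference was -0.17 (adjusted p = 0.113) and no longer called. Between treated groups VIM was higher at D14 than at D3, 0.72 (SE 0.072, adjusted p = 7.85e-06), and lower at D28 than at D14, -0.47 (SE 0.072, adjusted p = 3.35e-04). In a bulk sample a lower level can come from fewer cells of a kind or from less RNA per cell, and these cannot be told apart here.

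CD44 (chr11:35138882-35232402, plus strand) is a surface receptor for hyaluronan and a common marker of the mesenchymal state of glioblastoma. In U251, CD44 was 819, 864 and 836 TPM in Untreated, 394, 514 and 419 at D3, 645, 619.6 and 643 at D14, 449, 442 and 457 at D28 and 427, 492 and 523 in D28WO. No treated library reached the Untreated range, D14 formed a middle step, and D3, D28 and D28WO overlapped. The mean fell from 839.8 ± 22.8 TPM (SD, n = 3) to 442 ± 63.2 TPM (SD, n = 3) at D3, -0.93 (SE 0.086, adjusted p = 1.32e-06), and stayed lower at D14, -0.40 (SE 0.086, adjusted p = 0.00462), at D28, -0.90 (SE 0.086, adjusted p = 1.72e-06), and in D28WO, -0.81 (SE 0.086, adjusted p = 8.55e-06). D28WO against D28 gave 0.092 (SE 0.086, adjusted p = 0.463). The D14 call was lost with quantile normalization (adjusted p = 0.581).

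In U87, CD44 measured 655, 672 and 732 TPM in Untreated, 610.5 and 649 at D3, 553 and 580.2 in the libraries labelled D14, 649, 598 and 563 at D28 and 471, 519 and 574 in those labelled D28WO. All treated libraries lay below all Untreated ones, but the steps were small, and CD44 fell by the test only in those labelled D28WO, -0.40 (SE 0.079, adjusted p = 0.00178). That call was lost with quantile normalization, where the adjusted p was 0.887. The D3 and D28 differences were -0.12 (SE 0.088, adjusted p = 0.365) and -0.19 (SE 0.079, adjusted p = 0.112).

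CHI3L1 (chr1:203178931-203186704, minus strand) encodes YKL-40, a secreted chitinase-like glycoprotein that marks the mesenchymal state and inflammation. In U87, CHI3L1 stood at 122, 132 and 119 TPM in Untreated, 257 and 224 at D3, 216 and 195 in the libraries labelled D14, 249.6, 256 and 243 at D28 and 203, 224 and 207 in those labelled D28WO. Each treated library was above each Untreated one, including the libraries labelled D14, in which IRF1 and GBP1 were at the untreated level. The mean rose 1.94-fold at D3, 0.95 (SE 0.081, adjusted p = 1.49e-05), 1.65-fold in those labelled D14, 0.72 (SE 0.081, adjusted p = 0.00183), 2.01-fold at D28, 1.00 (SE 0.072, adjusted p = 2.61e-06), and 1.70-fold in those labelled D28WO, 0.76 (SE 0.072, adjusted p = 1.08e-05). The D14 call was lost with only the 2 groups in the fit (adjusted p = 0.0811). D28WO was lower than D28 by 0.24 on the log2 scale (adjusted p = 0.0398), a call lost without any of 5 of the 6 libraries, all but D28WO replicate 2 (adjusted p up to 0.143).

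In U251, CHI3L1 read 34.0, 31.8 and 31.0 TPM in Untreated, 30.2, 33.0 and 26.7 at D3, 34.2, 24.2 and 21.8 at D14, 76.6, 91.4 and 99.5 at D28 and 15.9, 18.9 and 18.4 in D28WO. Here D28 was the only group above Untreated and D28WO the only one wholly below it, with no overlap, while D3 and D14 overlapped with Untreated. CHI3L1 rose from 32.3 ± 1.51 TPM (SD, n = 3) to 89.2 ± 11.6 TPM (SD, n = 3) at D28, 2.76-fold, 1.43 (SE 0.15, adjusted p = 3.84e-06), and fell in D28WO to 17.7 ± 1.62 TPM (SD, n = 3), -0.83 (SE 0.15, adjusted p = 7.71e-04). D28WO against D28 gave -2.26 (SE 0.15, adjusted p = 2.01e-07), the largest difference of any member in any comparison run, and the D28WO mean was 0.20 of the D28 mean. At D3 and D14 the differences from Untreated were -0.11 (SE 0.15, adjusted p = 0.601) and -0.29 (SE 0.15, adjusted p = 0.196). In the same D28WO libraries IRF1 and GBP1 stood at the D28 level.

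FN1 (chr2:215360440-215436073, minus strand) encodes fibronectin, an extracellular matrix protein. In U251, FN1 was 206, 190.0 and 173 TPM in Untreated, 189, 292 and 241 at D3, 201, 223 and 201 at D14, 245, 244 and 268 at D28 and 258, 264 and 296 in D28WO. All D28 and D28WO libraries lay above all Untreated ones, whereas D3 spread from within the Untreated range to the second highest value of the line. FN1 rose at D28, 0.41 (SE 0.12, adjusted p = 0.0149), and in D28WO, 0.52 (SE 0.12, adjusted p = 0.00532). At D3 it was called at 0.32 (SE 0.12, adjusted p = 0.0461), a call lost without D3 replicate 2 or 3 or Untreated replicate 2 or 3 (adjusted p between 0.0902 and 0.206) and without all D14 or all D28WO libraries. The D28 call was lost without Untreated replicate 3 or D28 replicate 3 (adjusted p = 0.0561 and 0.0643). In U87, FN1 measured 514, 518 and 658 TPM in Untreated, 524 and 519 at D3, 620.5 and 658 in the libraries labelled D14, 615, 563 and 579 at D28 and 539, 573 and 565 in those labelled D28WO. Untreated replicate 3 stood about as high as the highest treated library, Untreated overlapped with every other group, and the difference at D28 was 0.064 (SE 0.085, adjusted p = 0.623).

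CDH2 (chr18:27932879-28177946, minus strand) encodes N-cadherin, the adhesion molecule of neural and mesenchymal cells. In U251, CDH2 stood at 155, 153 and 172 TPM in Untreated, 152, 168 and 157 at D3, 148, 166 and 157 at D14, 153, 152 and 143 at D28 and 160.1, 161 and 169 in D28WO. Neighbouring groups in the order of means overlapped, with D28 lowest, and the 4 log2 differences from Untreated ran from -0.10 to 0.032 with an SE of 0.061. In U87, CDH2 was 71.8, 79.0 and 70.7 TPM in Untreated, 67.8 and 70.5 at D3, 62.6 and 68.8 in the libraries labelled D14, 63.0, 61.1 and 66.0 at D28 and 65.5, 66.2 and 65.1 in those labelled D28WO. The treated libraries were all below the Untreated ones by a small step. CDH2 fell at D28 of U87, -0.22 (SE 0.071, adjusted p = 0.0445), but the call was lost without any of 5 of the 6 libraries, all but D28 replicate 3 (adjusted p between 0.0545 and 0.138), and without all libraries labelled D14 (0.0511) or D28WO (0.0854).

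**Figure D3:**
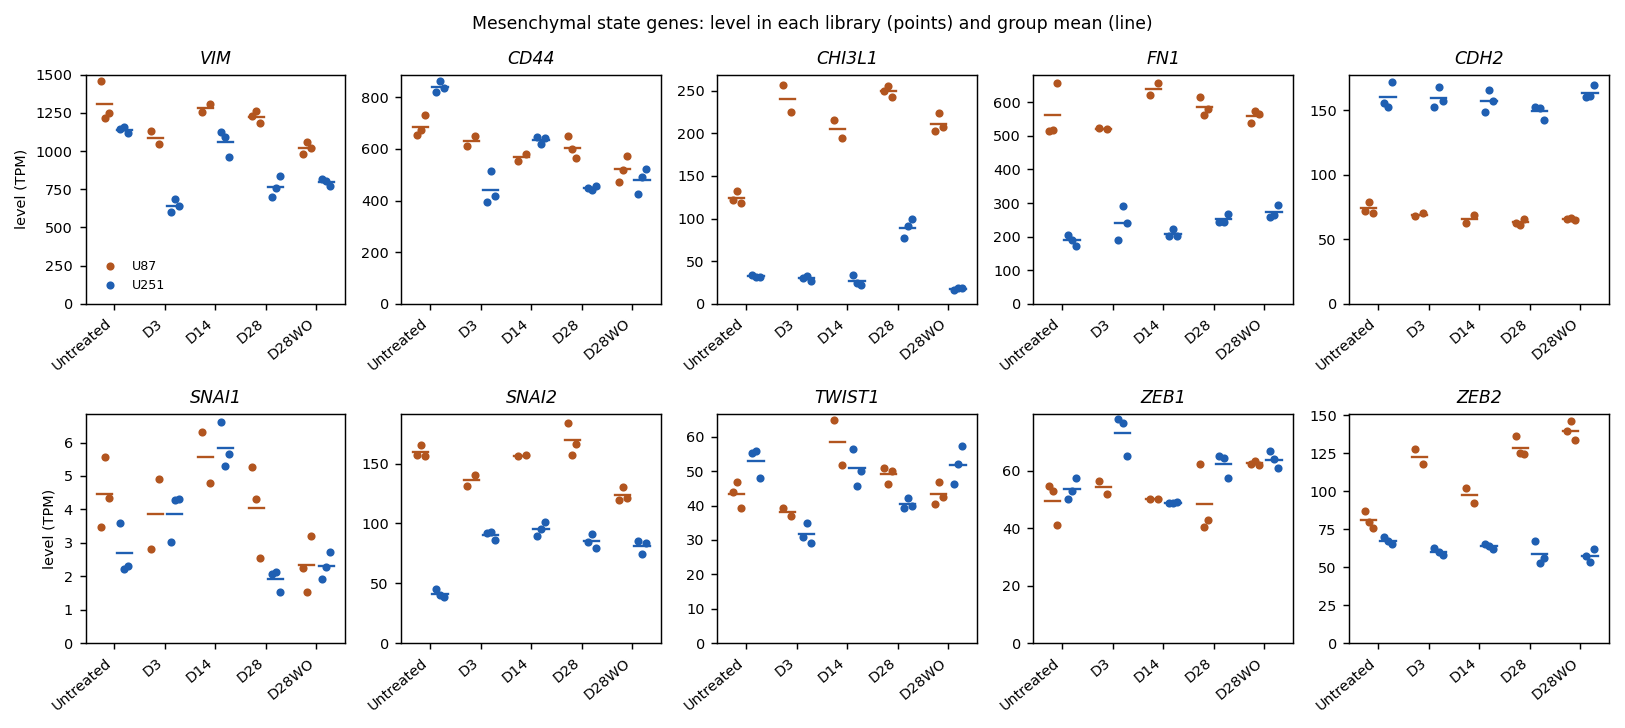
Level (TPM, y axis from 0, a scale for each gene) of the 10 genes in the 5 groups (x axis) of U87 (brown) and U251 (blue); each point is 1 library and each line the group mean. CHI3L1 and ZEB2 rise in U87 above 119 to 132 and 76.0 to 86.8 TPM in Untreated; SNAI2 in U251 steps from 38.2 to 45.3 TPM in Untreated to at least 74.2 TPM in every other library.

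Of the transcription factors, SNAI1 (Snail, chr20:49982980-49988886, plus strand) was the lowest, at rank 13456 of all genes in Untreated U87 and 15431 in Untreated U251. In U251, SNAI1 read 3.61, 2.23 and 2.29 TPM in Untreated, 3.04, 4.27 and 4.30 at D3, 6.60, 5.28 and 5.66 at D14, 2.07, 2.13 and 1.53 at D28 and 1.93, 2.27 and 2.73 in D28WO. The D14 libraries were above all others of the line. SNAI1 rose at D14, from 2.71 ± 0.778 TPM (SD, n = 3) to 5.85 ± 0.68 TPM (SD, n = 3), 0.90 (SE 0.21, adjusted p = 0.00811), and fell again from D14 to D28, -1.24 (SE 0.21, adjusted p = 8.74e-04). In U87, SNAI1 was 3.46, 5.58 and 4.34 TPM in Untreated, 2.81 and 4.92 at D3, 6.32 and 4.79 in the libraries labelled D14, 5.26, 4.31 and 2.55 at D28 and 2.24, 1.52 and 3.20 in those labelled D28WO. The spread within a group reached that between groups, and against Untreated the largest difference, in the libraries labelled D28WO, was -0.73 (SE 0.30, adjusted p = 0.0705).

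SNAI2 (Slug, on chromosome 8) is a zinc finger repressor of the same family as SNAI1. In U251, SNAI2 stood at 45.3, 40.1 and 38.2 TPM in Untreated, 92.2, 92.7 and 86.5 at D3, 89.7, 95.2 and 101 at D14, 84.1, 91.5 and 79.7 at D28 and 85.5, 74.2 and 83.5 in D28WO. Every library of the 4 other groups was well above the 3 Untreated ones, and these groups lay close together. SNAI2 rose 2.20-fold at D3, 1.12 (SE 0.081, adjusted p = 1.26e-07), 2.31-fold at D14, 1.19 (SE 0.081, adjusted p = 2.59e-07), 2.07-fold at D28, 1.03 (SE 0.081, adjusted p = 2.58e-07), and 1.97-fold in D28WO, 0.96 (SE 0.081, adjusted p = 9.03e-07). All 4 calls were kept under every alternative tried other than the fold limit, which D28WO did not reach. D28WO against D28 gave -0.069 (SE 0.081, adjusted p = 0.566).

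In U87, SNAI2 measured 158, 166 and 157 TPM in Untreated, 131 and 141 at D3, 156 and 157 in the libraries labelled D14, 184, 157 and 167 at D28 and 119.9, 131 and 121 in those labelled D28WO. D14 and D28 each overlapped with Untreated, and D3 and D28WO lay below Untreated. SNAI2 fell in the libraries labelled D28WO, -0.37 (SE 0.069, adjusted p = 0.00121), and was lower there than at D28, -0.45 (SE 0.069, adjusted p = 0.00122). The D3 difference, -0.23 (SE 0.077, adjusted p = 0.059), did not pass the threshold, and neither did that at D28, 0.080 (SE 0.069, adjusted p = 0.429).

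TWIST1 (chr7:19020991-19117636, minus strand) is a basic helix-loop-helix factor of mesenchymal and neural crest cells. In U251, TWIST1 was 55.4, 55.9 and 47.9 TPM in Untreated, 30.9, 34.9 and 29.1 at D3, 56.6, 45.8 and 50.1 at D14, 39.2, 42.1 and 39.9 at D28 and 46.4, 52.2 and 57.2 in D28WO. D3 lay lowest and D28 next, both below Untreated with no overlap, while D14 and D28WO overlapped with Untreated. TWIST1 fell at D3 to 0.60 of the Untreated mean, -0.73 (SE 0.10, adjusted p = 6.96e-05), and at D28, -0.38 (SE 0.10, adjusted p = 0.00902), and the D14 and D28WO differences were -0.063 (SE 0.10, adjusted p = 0.72) and -0.032 (SE 0.10, adjusted p = 0.873). It was higher in D28WO than at D28, 0.35 (SE 0.10, adjusted p = 0.0208), a call lost without D28 replicate 1 or 3 or D28WO replicate 2 or 3 (adjusted p up to 0.0928). In U87, TWIST1 read 44.1, 46.7 and 39.3 TPM in Untreated, 39.2 and 37.0 at D3, 64.9 and 51.9 in the libraries labelled D14, 50.9, 46.3 and 50.2 at D28 and 40.5, 47.0 and 42.4 in those labelled D28WO. The libraries labelled D14 were the highest and D3 the lowest, and D14 was above D3 by 0.60 (SE 0.13, adjusted p = 0.0205), which was lost without D14 replicate 2 or either D3 library (adjusted p between 0.0861 and 0.179). No comparison of TWIST1 with Untreated passed in U87.

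ZEB1 (chr10:31318495-31529814, plus strand) is a zinc finger and homeobox repressor of epithelial genes. In U251, ZEB1 stood at 49.99, 52.9 and 57.6 TPM in Untreated, 77.9, 76.5 and 65.2 at D3, 48.9, 48.7 and 49.2 at D14, 65.1, 64.5 and 57.5 at D28 and 66.7, 63.9 and 61.0 in D28WO. D3 had the highest mean and overlapped with D28WO, D28 overlapped with Untreated, and D14 was just below Untreated. ZEB1 rose at D3, 0.44 (SE 0.081, adjusted p = 5.74e-04), was lower at D14 than at D3, -0.57 (SE 0.081, adjusted p = 1.71e-04), and was higher at D28 than at D14, 0.34 (SE 0.081, adjusted p = 0.00805). The rises against Untreated at D28, 0.22 (SE 0.081, adjusted p = 0.0454), and in D28WO, 0.25 (SE 0.081, adjusted p = 0.0314), were lost without Untreated replicate 1 or 2, without replicate 1 or 2 of the treated group, or without all D14 libraries, and that at D28 also without all D28WO libraries (adjusted p over all alternatives up to 0.356 at D28 and 0.119 in D28WO). In U87, ZEB1 was 54.5, 53.0 and 41.2 TPM in Untreated, 56.5 and 51.8 at D3, 50.3 and 50.1 in the libraries labelled D14, 62.3, 40.5 and 42.9 at D28 and 62.5, 63.3 and 62.1 in those labelled D28WO. D28 replicate 1 stood far above the other D28 libraries, and no comparison passed, with D28 against Untreated at -0.045 (SE 0.15, adjusted p = 0.866).

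ZEB2 (chr2:144364364-144521057, minus strand) is the relative of ZEB1 that neural crest and glial cells express. In U87, ZEB2 measured 86.8, 79.7 and 76.0 TPM in Untreated, 127 and 118 at D3, 102 and 92.4 in the libraries labelled D14, 136, 125 and 125 at D28 and 139, 146 and 134 in those labelled D28WO. Every other library was above every Untreated one, in the order D14, D3, D28 and D28WO. ZEB2 rose 1.52-fold at D3, 0.59 (SE 0.083, adjusted p = 7.37e-04), 1.59-fold at D28, 0.66 (SE 0.074, adjusted p = 9.93e-05), and 1.73-fold in the libraries labelled D28WO, 0.78 (SE 0.074, adjusted p = 1.08e-05). In those labelled D14 the difference was 0.27 (SE 0.083, adjusted p = 0.0869), and D28 was above D14 by 0.40 (SE 0.083, adjusted p = 0.0186), a call lost without D14 replicate 3 or D28 replicate 1 (adjusted p up to 0.172). The 3 rises against Untreated were kept under every alternative tried other than the fold limit, which none of them reached. In U251, ZEB2 was 69.5, 66.9 and 64.9 TPM in Untreated, 62.7, 59.6 and 57.9 at D3, 65.1, 63.9 and 62.0 at D14, 67.0, 52.5 and 56.0 at D28 and 57.4, 53.4 and 62.1 in D28WO. All groups stood close together here, D3 and D28WO lay just below Untreated, and the D28 difference was -0.20 (SE 0.085, adjusted p = 0.0735).

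Antisense genes overlap the start of 3 members, and neither the strand of the libraries nor that of the counting is given in the sources used here, so reads in these overlaps cannot be told apart. VIM-AS1 (chr10:17214239-17230018) went from 22.2 ± 1.501 TPM in Untreated to 38.4 ± 5.12 TPM at D28 of U87 and from 9.26 ± 0.809 TPM in Untreated to 15.9 ± 2.97 TPM at D28 of U251, and rose by the test in both, 0.76 (SE 0.11, adjusted p = 8.79e-04) and 0.71 (SE 0.21, adjusted p = 0.0167). The U251 call was lost without Untreated replicate 3 or D28 replicate 2 or 3 (adjusted p up to 0.175 over the alternatives). These levels are a small part of those of VIM, which did not rise. ZEB1-AS1 (chr10:31206278-31320447) rose at D28 of U87 from 12.02 ± 4.76 TPM in Untreated to 37.5 ± 16.8 TPM at D28, 1.53 (SE 0.31, adjusted p = 0.00531), and its highest value, 55.9 TPM, was in D28 replicate 1, the U87 library with the highest ZEB1 of that group. This call was lost with only the 2 groups in the fit (adjusted p = 0.0662). In U251, ZEB1-AS1 rose at D28, 0.68 (SE 0.22, adjusted p = 0.023), a call lost without Untreated replicate 1 or 2 or D28 replicate 1 or 3 (adjusted p up to 0.0941 over the alternatives). ZEB2-AS1 of U251 went from 0.743 ± 0.0796 TPM to 5.06 ± 1.61 TPM, 1.76 (SE 0.65, adjusted p = 0.0448), a call lost without any 1 of the 6 libraries (adjusted p 0.0587 to 0.127). ZEB2-AS1 (chr2:144517978-144521477) averaged 8.47 ± 4.64 TPM in Untreated and 17.1 ± 4.6 TPM at D28 of U87, 1.02 (SE 0.41, adjusted p = 0.0933), beside mean ZEB2 levels of 80.8 ± 5.46 TPM (SD, n = 3) and 129 ± 6.44 TPM (SD, n = 3).

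The other transcription factors known from epithelial-mesenchymal transition did not follow 1 direction either. Of 6 (SNAI3, TWIST2, PRRX1, FOXC2, GSC and KLF8), 5 were tested at D28 of U87, where 1 rose and 2 fell, and 4 in U251, where 1 rose and 1 fell. PRRX1, a homeobox factor of mesenchymal cells, rose at D28 of U251 from 112 ± 0.682 TPM in Untreated to 207 ± 6.15 TPM at D28, 0.88 (SE 0.099, adjusted p = 8.65e-06), and fell at D28 of U87, -0.48 (SE 0.14, adjusted p = 0.0298), a call lost without Untreated replicate 2 or 3 or D28 replicate 2 or 3 and without all libraries labelled D28WO (adjusted p up to 0.104 over the alternatives). TWIST2 rose in U87, 1.45 (SE 0.28, adjusted p = 0.00355), and fell in U251, -0.72 (SE 0.20, adjusted p = 0.0124). FOXC2 fell in U87, -0.84 (SE 0.12, adjusted p = 6.54e-04). Of 9 regulators named for the mesenchymal state of glioma, all tested, 3 rose and none fell at D28 of U87, with a median of 0.19 beside 0.19 for all genes, and 1 rose and 4 fell in U251, with a median of -0.29 against 0.16. The C/EBP factors led the rises, CEBPD in U87 from 22.8 ± 4.03 TPM in Untreated to 46.4 ± 5.70 TPM at D28, 1.00 (SE 0.13, adjusted p = 3.54e-04), and CEBPB in U251 from 79.1 ± 4.04 TPM in Untreated to 163 ± 3.76 TPM at D28, 1.04 (SE 0.050, adjusted p = 2.03e-09). FOSL2 and WWTR1 fell in U251, -0.58 (SE 0.076, adjusted p = 3.14e-05) and -0.57 (SE 0.088, adjusted p = 1.52e-04).

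A list of 45 genes of the mesenchymal-like state of glioblastoma, with the members left out, was read in 2 parts, with genes known to respond to interferon or to belong to complement set apart. Of that subset of 10 genes, 7 of 8 tested rose and none fell at D28 of U87, with a median of 1.305 against 0.19 for all genes, and 8 of 10 rose and 2 fell in U251, with a median of 0.91 against 0.16. SERPING1, the C1 inhibitor, rose from 6.99 ± 2.27 TPM in Untreated to 96.5 ± 10.1 TPM at D28 of U87 and from 3.83 ± 2.75 TPM in Untreated to 247 ± 6.09 TPM at D28 of U251, and complement C3 from 85.4 ± 18.8 TPM in Untreated to 465 ± 70.5 TPM at D28 and from 7.41 ± 0.693 TPM in Untreated to 411 ± 45.0 TPM at D28. SERPINA3 fell in U251, from 126 ± 4.64 TPM in Untreated to 4.27 ± 1.13 TPM at D28. Over all genes 17.2% rose and 6.55% fell at D28 of U87, and 25.9% and 14.7% in U251. Of the 35 other genes of the list, 2 rose and 15 fell at D28 of U87, with a median of -0.25, and 5 rose and 20 fell in U251, with a median of -0.22. Among all genes averaging 100 TPM or more, 28.7% fell at D28 of U87 and 34.1% in U251, with medians of -0.14 and -0.076.

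Named falls among these were S100A16 in U87, -0.63 (SE 0.078, adjusted p = 2.15e-04), and GSN, encoding gelsolin, and GFPT2 in U251, -1.28 (SE 0.080, adjusted p = 2.37e-08) and -1.27 (SE 0.098, adjusted p = 2.02e-07). Named rises were RCAN1 and NNMT in U87, 0.77 (SE 0.13, adjusted p = 0.00184) and 0.62 (SE 0.16, adjusted p = 0.0182). The NNMT call was lost without Untreated replicate 3 (adjusted p up to 0.114 over the alternatives). The 15 falls of U87 became 8 without Untreated replicate 3 or without D28 replicate 2, and 14 or 11 without all libraries labelled D14 or D28WO, and no list was tested as a set.

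**Figure D4:**
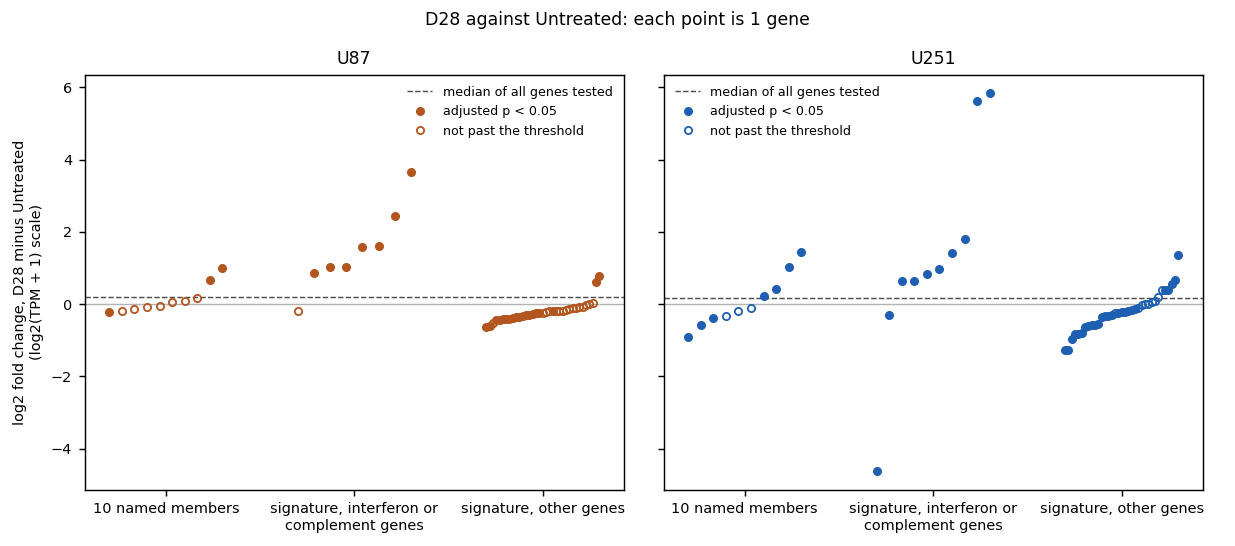
Log2 fold change at D28 against Untreated (y axis, log2(TPM + 1) scale) of single genes of U87 (left) and U251 (right), sorted within each group on the x axis; filled points have an adjusted p under 0.05, and the dashed line is the median of all genes tested. The 10 members spread around 0, 7 of 8 tested interferon or complement genes rose in U87 and 8 of 10 in U251, and of the 35 other genes of the signature 15 fell in U87 and 20 in U251.

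Among partners of the members, CHI3L2, another chitinase-like gene, rose at D28 of U87 from 63.5 ± 4.21 TPM in Untreated to 141 ± 13.7 TPM at D28, 1.13 (SE 0.10, adjusted p = 1.36e-05), and fell at D28 of U251 from 162 ± 5.33 TPM in Untreated to 41.9 ± 9.77 TPM at D28, -1.95 (SE 0.18, adjusted p = 1.18e-06), where CHI3L1 rose. In the U87 libraries labelled D14 it stood at 60.2 ± 10.8 TPM, -0.086 (SE 0.11, adjusted p = 0.692), while CHI3L1 rose in them. IL13RA2, reported as a receptor of CHI3L1, rose in U251, 0.96 (SE 0.11, adjusted p = 9.78e-06), and fell in U87, -0.38 (SE 0.11, adjusted p = 0.0308), a call lost without Untreated replicate 1 or 3 and without all libraries labelled D28WO (adjusted p up to 0.149 over the alternatives). Of 9 genes of the CD44 group tested in U251 (hyaluronan synthases, ligands and linker proteins), 2 rose and 5 fell at D28, and of 10 in U87, 3 fell. HAS2, a hyaluronan synthase, fell in U251 from 48.9 ± 2.62 TPM in Untreated to 9.28 ± 0.999 TPM at D28, -2.28 (SE 0.12, adjusted p = 4.32e-09), and the linker RDX, radixin, also fell, -0.62 (SE 0.071, adjusted p = 9.48e-06). In U87 the CD44 ligand SPP1, osteopontin, fell, -0.60 (SE 0.086, adjusted p = 6.004e-04), and so did the linker MSN, moesin, -0.36 (SE 0.077, adjusted p = 0.00734), though not with quantile normalization or with 2 groups in the fit (adjusted p up to 0.0731).

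Of 7 fibronectin receptors and matrix partners, 1 rose and 4 fell at D28 of U251, and 2 rose and 2 fell in U87. The integrin ITGB3 fell in U251 from 151 ± 5.24 TPM in Untreated to 27.0 ± 1.42 TPM at D28, -2.44 (SE 0.082, adjusted p = 4.21e-11), and its partner ITGAV fell, -1.01 (SE 0.076, adjusted p = 1.71e-07), while the cross-linking enzyme TGM2 rose, 1.38 (SE 0.085, adjusted p = 2.29e-08). In U87, ITGB3 rose, 0.31 (SE 0.073, adjusted p = 0.011), a call lost with size factors (adjusted p = 0.386). ITGA5 and ITGB1, the subunits of the main fibronectin receptor, fell in U87, -0.46 (SE 0.086, adjusted p = 0.00346) and -0.36 (SE 0.085, adjusted p = 0.0105), the latter not with quantile normalization or with 2 groups in the fit (adjusted p up to 0.12). Of 6 filament partners of vimentin tested in U251, 4 fell and none rose at D28, among them GFAP, from 1258 ± 46.3 TPM in Untreated to 243 ± 18.2 TPM at D28, -2.37 (SE 0.091, adjusted p = 1.71e-10), nestin (NES), -0.91 (SE 0.067, adjusted p = 1.35e-07), and SYNM, -0.72 (SE 0.064, adjusted p = 8.25e-07). Of 5 tested in U87, 1 rose and 1 fell at D28, the latter LMNA, -0.40 (SE 0.075, adjusted p = 0.00347). Of 9 other cadherins and catenins tested in U251, 1 rose and 7 fell, with plakoglobin (JUP) the most changed, -1.77 (SE 0.14, adjusted p = 2.28e-07), followed by CDH4, -0.99 (SE 0.058, adjusted p = 1.303e-08), and CDH11, -0.79 (SE 0.063, adjusted p = 2.85e-07). CDH11 fell also in U87, from 43.1 ± 3.31 TPM in Untreated to 12.2 ± 0.959 TPM at D28, -1.74 (SE 0.13, adjusted p = 3.89e-06), and 2 of 8 fell there in all. For CDH2 itself the D28 difference in U251 was -0.10 (SE 0.061, adjusted p = 0.212).

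Epithelial genes that SNAI and ZEB factors are known to repress were low or without 1 direction. CDH1, encoding E-cadherin, averaged 0.389 ± 0.231 TPM in Untreated U87 and 0.39 ± 0.424 TPM in Untreated U251, with group means of at most 1.61 TPM in U87 and 0.862 TPM in U251. Of 11 listed genes 8 were tested in each line, and at D28 1 rose and 1 fell in U87, and 2 rose and 1 fell in U251. CLDN7, a tight junction claudin, rose in U87 from 4.31 ± 1.52 TPM in Untreated to 27.2 ± 6.25 TPM at D28, 2.43 (SE 0.23, adjusted p = 2.79e-05), and KRT8, a simple epithelial keratin, fell in U251, -1.02 (SE 0.16, adjusted p = 1.64e-04). The summed level of the 11 genes ran from 42.6 to 67.4 TPM in Untreated and 83.7 to 101 TPM at D28 of U87, and from 113 to 122 TPM and 78.8 to 108 TPM in U251. Of 11 proneural and glial genes, 2 rose and 4 fell of 8 tested at D28 of U251. Their summed level was 1867 to 1926 TPM in Untreated, mostly GFAP, and 538 to 586 TPM at D28, where GFAP averaged 243 TPM. PDGFRA and S100B fell there, -2.32 (SE 0.080, adjusted p = 6.18e-11) and -1.51 (SE 0.15, adjusted p = 2.40e-06). In U87, 2 of 6 tested rose at D28 and none fell. These were GFAP, from 4.84 ± 2.32 TPM in Untreated to 14.2 ± 5.70 TPM at D28, 1.38 (SE 0.37, adjusted p = 0.02), a call lost without Untreated replicate 3 or D28 replicate 1 or 2 (adjusted p up to 0.107 over the alternatives), and S100B, 1.06 (SE 0.35, adjusted p = 0.0461), which lies outside the naming rule in U87 and was named after its values were seen.

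For members whose 4 log2 fold changes against Untreated spanned at least 1, genes averaging 5 TPM or more were ranked by the mean absolute difference of their 4 log2 fold changes from those of the member. CHI3L1 of U251, with a span of 2.26, was most like CA12 (0.19), SLC12A5 (0.24) and FCF1P2 (0.25) over 14380 genes. SNAI1 of U87, with a span of 1.00, was most like NRG2 (0.032), MAGIX (0.040) and KIF20A (0.041) over 14069 genes. SNAI1 of U251 spanned 1.24, and its nearest rows have no gene symbol, the closest being ENSG00000290318 (0.13). With 5 group means behind each profile and so many genes ranked, these are descriptions only, and the other members spanned less than 1 in either line.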

How the data were processed

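Total RNA of U87 and U251 cultures was sequenced in bulk. According to the study's methods, RNA was taken up on columns, TruSeq libraries were run on an Illumina HiSeq instrument, and reads were checked with FastQC, trimmed with Trim Galore, aligned to GRCh38 with STAR and counted with featureCounts, and the authors filtered with edgeR and tested with voom-limma. The deposited tables hold TPM, transcript abundances scaled to a fixed library total, as computed by the authors, 1 table for each line, in a way that is not given in the sources used here; a supplementary sheet of the study calls such matrices CPM, but each column sums to 1e+06 and the deposited name was kept. No counts were used, so the precision that depth gives is unknown, and the number of libraries limits it.

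Groups were taken from the labels. The 2 U87 columns that share a name were used in no step. Within each line, genes averaging 0.5 TPM or more entered limma (version 3.58.1, R 4.3.3) on log2(TPM + 1), with the 5 groups of the line in 1 fit, a mean-variance trend and Benjamini-Hochberg adjustment over all tested genes of a comparison. The step was also run on simulated data with independent noise and changes placed only at D3, in genes above about 5 TPM. That run does not cover low genes or the other comparisons. Figures were drawn with matplotlib 3.10.9 in Python 3.11.15. Positions come from GENCODE 44 and promoter windows from RefSeq on GRCh38.p14. All 10 members and 2 label-check genes are described. Some items that the naming rule gives are not reported here. Of each other list at most the 3 genes with the largest absolute change among those called at D28 and averaging 5 TPM or more were named. The members and lists were chosen with earlier results of these data known. Alternatives were a pseudocount of 0.1, no filter or one at 1 TPM, quantile normalization, size factors, fits of 2 groups, a replicate block, array weights, a fold limit and leaving out each library. Fits without all libraries labelled D14 or D28WO were added after seeing the data. The replicate numbers were not used as pairs in the main fit. Correlations of same-numbered libraries' deviations ran from -0.128 to 0.116 in U87 and from -0.099 to 0.116 in U251. These values cannot tell whether such libraries share a culture.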

Additional observations from a re-analysis of the deposited data

Results flagged for a closer look

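For 2 of 10 members at D3 and 3 of 10 members in D28WO, every library of the group lay on 1 side of Untreated in U87 and on the other side in U251, and 0 of 10 members did so at D14 and 0 of 10 members at D28. Of the 20473 genes tested in both lines, 6.77% did so at D3, 6.41% at D14, 6.46% at D28 and 6.22% in D28WO. With so few members, these counts are given as a description and nothing particular to the members is read from them. The difference between the lines was not tested, because the tables were normalized separately. CHI3L1 in D28WO stood at 0.76 in U87 and -0.83 in U251 on the log2 scale, and both changes passed the test within the line. SNAI2 in D28WO stood at -0.37 and 0.96, again with both called. At D3, SNAI2 stood at -0.23 in U87, which was not called, and 1.12 in U251. For ZEB2 the values were 0.59 and -0.16 at D3 and 0.78 and -0.22 in D28WO, with the U87 rises called and the U251 values not.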

How the results depend on the processing

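Of the 63 called member changes, 40 kept their direction and their call under every alternative run other than the fold limit. Leaving out 1 library ended 9 of the 22 calls of U87 and 9 of the 41 of U251, and each is named above. The only change of direction was VIM in D28WO against D28 of U87, at 0.029 with quantile normalization. In U87 the number of members called moved by over 1.5 times as follows. It was 5 at D3 with size factors, 2 at D14 with quantile normalization and 0 with 2 groups in the fit (4 members at an unadjusted p under 0.05 by limma). D14 against D3 gave 3 with quantile normalization, 0 with 2 groups (4 unadjusted), 2 with the replicate block and 2 with array weights. D28 against D14 gave 3, 0 and 2 with quantile normalization, 2 groups and the block (2 unadjusted with 2 groups), and D28WO against D28 gave 1 with quantile normalization. With the fold limit the count was 0 in all U87 comparisons but D28WO against D14, where it was 1. In U251 the fold limit left 1, 1, 2 and 0 members at D3, D14, D28 and D28WO, 0 for D14 against D3, 2 for D28 against D14, and 1 each for D28WO against D28 and D14. The 15 other signature genes that fell in U87 became 6 with quantile normalization, 5 with 2 groups, 0 with the fold limit and 8 to 17 without 1 library. In U251 the fold limit left 4 of the 8 interferon or complement genes that rose and 2 of the 20 others that fell. The causes were not tested.

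Without 1 library the members called in U87 ranged from 2 to 3 at D3, 1 to 2 at D14, 2 to 3 at D28, 5 to 5 in D28WO, 0 to 1 for D14 against D3, 0 to 1 for D28 against D14, 1 to 3 for D28WO against D28 and 3 to 4 for D28WO against D14. In U251 they ranged from 5 to 6, 3 to 4, 6 to 7, 5 to 7, 4 to 5, 5 to 6, 1 to 2 and 5 to 6 in the same order. The replicate block ended 3 of 22 calls in U87 (VIM at D3, CDH2 at D28 and SNAI1 in D28WO against D14) and 3 of 41 in U251 (ZEB1 at D28, TWIST1 in D28 against D14 and SNAI2 in D28WO against D14). Of same-numbered library pairs 3 of 23 in U87 and 1 of 30 in U251 correlated over 0.1. Such correlations over many genes cannot tell whether libraries came from the same split culture. The depth of each library is unknown in TPM, and low members such as SNAI1 carry the widest errors.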

Other observations

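Some genes outside the naming rule are given because their values stood out once seen. ESRP1, an epithelial splicing regulator, stood in U251 at 0.31 ± 0.461 TPM in Untreated, 10.2 ± 4.06 TPM at D3, 1.62 ± 0.306 TPM at D14, 9.96 ± 2.85 TPM at D28 and 2.50 ± 1.501 TPM in D28WO (SD, n = 3 each). CSF1R, the receptor of the macrophage growth factor, was the 1 of 6 leukocyte markers that averaged 1 TPM or more in U87, at 55.2 ± 6.85 TPM in Untreated and 16.9 ± 5.89 TPM in the libraries labelled D28WO, while AIF1, another of the 6, was listed at 0 in all groups of U87. Of 6 repressors of the mesenchymal state, 2 were tested in each line. In U87 none was called at D28, while ELF3 rose at D3, 1.90 (SE 0.34, adjusted p = 0.00352), and both ELF3 and ZBTB18 rose in the libraries labelled D28WO, 3.39 (SE 0.30, adjusted p = 6.79e-06) and 0.55 (SE 0.15, adjusted p = 0.0117). ELF3 lay near the floor in Untreated U87, at 0.197 ± 0.315 TPM (SD, n = 3), and at 3.57 ± 1.93 TPM (SD, n = 2) at D3. In U251, 1 of the 2 tested repressors fell at D28.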
